A study of Homo sapiens with 6 samples.

Results

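The 7 pentose phosphate pathway enzymes H6PD, PGLS, PGD, RPE, RPIA, TKT and TALDO1 were described in DLD-1, an established cell line from human colorectal cancer. The cells had been transfected either with a control siRNA or with one directed at the long non-coding RNA lncSLCC1. The enzymes were taken by gene symbol, and all 7 were among the 56638 symbols listed in the count tables and among the 15242 genes with enough reads to be tested. Total RNA was sequenced from 3 libraries of each group, all from cells at passage 16 to 19 in serum-supplemented RPMI-1640 medium, so that the groups differed by label only in the siRNA. The study rests on 1 cell line, and neither the siRNA sequences nor the time after transfection is stated in the sources used here. Nothing in the labels says that the replicates were separate cultures, so p-values reflect only how far these libraries scatter, and that scatter may be technical.

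The pentose phosphate pathway takes glucose 6-phosphate out of glycolysis. Its oxidative branch yields NADPH, the reducing agent for glutathione recycling and for lipid synthesis, and ends in ribulose 5-phosphate. Its non-oxidative branch turns that sugar into ribose 5-phosphate for nucleotides, and exchanges carbon units reversibly with the glycolytic intermediates fructose 6-phosphate and glyceraldehyde 3-phosphate. H6PD, PGLS and PGD belong to the oxidative branch and RPIA, RPE, TKT and TALDO1 to the non-oxidative branch. The 7 genes do not cover every step of the pathway.

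Reads assigned to genes numbered 12572277 to 15568075 per library. Control replicate 1 stood apart from the other controls, with a chi-square statistic per gene of 15.9 against control replicate 2 and 28.0 against control replicate 3, whereas control replicates 2 and 3 gave 5.46 against each other and pairs of lncSLCC1 siRNA libraries gave 1.79 to 1.90. In control replicate 1, 5.42% of counted reads fell in no annotated feature and 10.1% were ambiguous between features, against 6.27% to 7.58% and 8.83% to 9.34% in the other 5 libraries. The targeted RNA is listed as RP11-400N13.2. In counts per 1000000 gene reads (CPM) it had 4.91, 9.19 and 8.98 in control replicates 1, 2 and 3, against 1.69, 2.69 and 2.15 after lncSLCC1 siRNA (log2 fold change -1.88 with an SE of 0.264, edgeR adjusted p = 0.0027). The epithelial markers EPCAM, CDH1, KRT8, KRT18, KRT19 and CDX2 were present in every library, while CDX1 and CEACAM5 stayed under 1 CPM. Of 9 tested epithelial markers 1 was called, VIL1, which was higher after lncSLCC1 siRNA, at 28.3 to 35.3 CPM against 13.6 to 18.4 CPM in controls (log2 fold change 0.87, adjusted p = 0.00618 by edgeR). Of 2 tested fibroblast markers 1 was called, PDGFRB, also higher, at 0.881 to 1.59 CPM against 0.403 to 0.711 CPM on 6 to 24 reads per library (log2 fold change 1.28, adjusted p = 0.0448 by edgeR). The part of these markers in the results on the 7 enzymes was not tested. Among all tested genes 13.8% were called in either direction. VIM, PTPRC and PECAM1, defining markers of mesenchymal, leukocyte and endothelial cells, did not exceed 0.475, 0.0678 and 0 CPM. Summed over the lists, 11 epithelial markers were at 5755 to 6820 CPM in controls and 6055 to 6358 CPM after lncSLCC1 siRNA, 6 fibroblast markers at 2.45 to 2.89 and 3.47 to 3.74 CPM, 5 leukocyte markers at 1.48 to 1.68 and 1.05 to 1.67 CPM, and 3 endothelial markers at 1.23 to 1.95 and 1.43 to 2.03 CPM. CPM is a share of the library, so less RNA per cell and fewer cells cannot be told apart in it.

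Among the 7 enzymes, H6PD was higher and RPIA was lower after lncSLCC1 siRNA, and the other 5 did not pass the test. The test was edgeR's quasi-likelihood test over all genes with Benjamini-Hochberg adjustment, and an adjusted p under 0.05 was called. In the whole transcriptome 6.46% of tested genes were called higher, 7.39% lower and 13.8% either way, so that 1 of 7 in each direction lies near this background. The median log2 fold change of the 7 was -0.24, against 0.0072 for all tested genes. The groups did not overlap in CPM for 5 of the 7, of which 4 were lower (PGD, RPIA, TKT and TALDO1) and 1 higher (H6PD). Among all tested genes the groups did not overlap for 39.9%, with 14.5% lower and 25.4% higher.

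**Figure D1:**
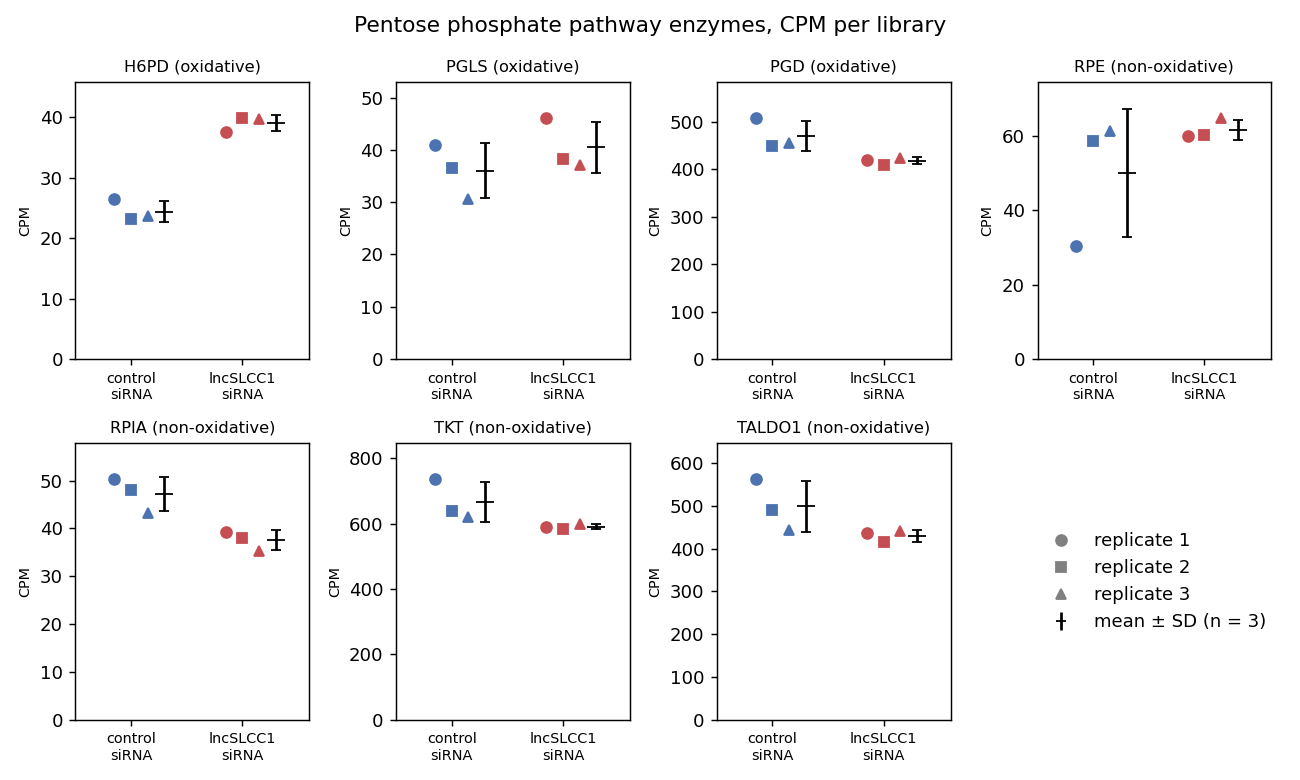
CPM of each enzyme gene (vertical axes, each from 0) in the 3 control siRNA and the 3 lncSLCC1 siRNA libraries, 1 symbol per replicate, with the mean and SD beside the points. H6PD lies at 37.5 to 39.8 CPM after lncSLCC1 siRNA, above all controls, and control replicate 1 is the lowest library for RPE, at 30.3 CPM, and the highest for PGD, RPIA, TKT and TALDO1.

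H6PD encodes the hexose 6-phosphate dehydrogenase of the endoplasmic reticulum lumen, a bifunctional enzyme that carries out the dehydrogenase and lactonase steps there and supplies the lumen with NADPH. Its levels, given here and below in the order of replicates 1, 2 and 3, were 26.4, 23.1 and 23.6 CPM with control siRNA and 37.5, 39.8 and 39.7 CPM after lncSLCC1 siRNA. All 3 lncSLCC1 siRNA libraries lay above all 3 controls, and the spread inside each group was small beside the gap between them. The mean rose from 24.4 ± 1.79 to 39.0 ± 1.29 CPM (SD, n = 3 each). Fold changes, here and throughout, are on edgeR's TMM library scaling and so differ somewhat from ratios of CPM means. On that scale the log2 fold change of H6PD was 0.61 (SE 0.105, adjusted p = 0.00697 by edgeR), with a 95% confidence interval from 0.37 to 0.84. Scaled by library totals, as CPM is, it was 0.68. The H6PD levels rest on 360 to 607 reads per library. The adjusted p was 0.0533 without lncSLCC1 siRNA replicate 2 and 0.0522 without replicate 3, at log2 fold changes of 0.59 in both cases.

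Of the genes that act beside H6PD in the reticulum, SLC37A4 was lower. SLC37A4, the transporter that brings glucose 6-phosphate into the lumen, fell from 43.9, 41.3 and 38.2 CPM with control siRNA to 33.7, 32.8 and 32.2 CPM (log2 fold change -0.39 with an SE of 0.101, edgeR adjusted p = 0.0323). Its related transporter gene SLC37A1 was at 90.7 to 97.6 CPM in controls and 105 to 111 CPM after lncSLCC1 siRNA. SLC37A1 was not called (log2 fold change 0.15, adjusted p = 0.248 by edgeR). It passed with GC content and length offsets (adjusted p = 0.0484 by edgeR) and without control replicate 1 (0.0146). SLC37A2 was at 0.323 to 1.27 CPM and was not called (adjusted p = 0.215 by edgeR). HSD11B1, the reductase best known for drawing on the NADPH that H6PD makes, had 0 reads in 5 libraries and 1 read in control replicate 2. Of the 3 tested genes of this list 1 was lower and 0 were higher, beside 7.39% and 6.46% of all tested genes. Leaving out control replicate 2 ended the SLC37A4 call (adjusted p = 0.102 by edgeR), as did leaving out any 1 of the lncSLCC1 siRNA libraries (0.112 to 0.142).

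PGLS encodes the cytosolic 6-phosphogluconolactonase. It was measured at 40.9, 36.6 and 30.6 CPM with control siRNA and at 46.0, 38.3 and 37.1 CPM after lncSLCC1 siRNA. The groups overlapped, and the means of 36.1 ± 5.18 and 40.5 ± 4.84 CPM (SD, n = 3 each) differed by less than 1 SD. The log2 fold change of 0.10 (95% confidence interval -0.21 to 0.41, SE 0.139, edgeR adjusted p = 0.672) leaves room for a change of up to 1.33-fold upward or down to 0.862 of the control level. In GENCODE release 29 the antisense gene AC010618.2 lies over 2236 bases of PGLS. Neither the strand setting nor the annotation release of the counting is stated, so whether reads of the pair were kept apart is not known.

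PGD, TKT and TALDO1 were the abundant members and made up 88.8% to 92.4% of the reads of the 7 genes in each library. PGD encodes 6-phosphogluconate dehydrogenase, which makes NADPH and ribulose 5-phosphate. Its levels were 507, 449 and 455 CPM with control siRNA and 419, 409 and 424 CPM after lncSLCC1 siRNA. TKT encodes transketolase, which moves 2-carbon units between sugar phosphates, and was at 736, 639 and 621 CPM in controls and at 591, 583 and 598 CPM after lncSLCC1 siRNA. TALDO1 encodes transaldolase, which moves 3-carbon units, and was at 562, 491 and 443 CPM in controls and at 436, 415 and 441 CPM after lncSLCC1 siRNA. For each of the 3 genes the highest library was control replicate 1 and every lncSLCC1 siRNA library lay below every control, for TALDO1 by a margin of only 441 against 443 CPM.

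None of these 3 differences passed the test. For PGD the log2 fold change was -0.24 (95% confidence interval -0.43 to -0.06, SE 0.084, edgeR adjusted p = 0.0803). For TKT it was -0.24 (95% confidence interval -0.45 to -0.04, SE 0.092, edgeR adjusted p = 0.105). For TALDO1 it was -0.29 (95% confidence interval -0.52 to -0.05, SE 0.104, edgeR adjusted p = 0.0928). These values lay at percentiles 21.0, 21.0 and 17.2 of the log2 fold changes of all tested genes. The means went from 470 ± 31.8 to 418 ± 7.46 CPM for PGD, from 665 ± 61.8 to 591 ± 7.65 CPM for TKT and from 499 ± 59.9 to 430 ± 13.8 CPM for TALDO1 (SD, n = 3 each). The spread was wider among controls, with coefficients of variation of 6.76% for PGD and 9.29% for TKT, than among lncSLCC1 siRNA libraries, with 1.79% and 1.30%.

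Leaving out control replicate 1 or 3 changed these 3 calls. Without control replicate 1 the log2 fold changes shrank to -0.16 for PGD, -0.14 for TKT and -0.17 for TALDO1, and all 3 passed the test, with adjusted p-values of 0.0172, 0.0332 and 0.0249 by edgeR. Without control replicate 3 they were -0.28, -0.31 and -0.38, and passed as well (0.0385, 0.0331 and 0.0152 by edgeR). The share of all tested genes called lower was 15.5% and 13.4% in these fits, against 7.39% with all libraries, so that the members were called where far more genes were called. Without control replicate 2 none of PGD, TKT and TALDO1 passed (adjusted p = 0.125, 0.158 and 0.176 by edgeR). Nor did they pass without any 1 of the lncSLCC1 siRNA libraries (0.212 to 0.299 by edgeR). In those fits 1.56% to 2.26% of tested genes were called lower. With all libraries, PGD, TKT and TALDO1 also passed without the low-count filter (adjusted p = 0.0343, 0.0255 and 0.00836 by edgeR, with 5.57% of genes called lower) and with GC content and length offsets (0.00683, 0.00225 and 0.00624, with 19.3% called lower).

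**Figure D2:**
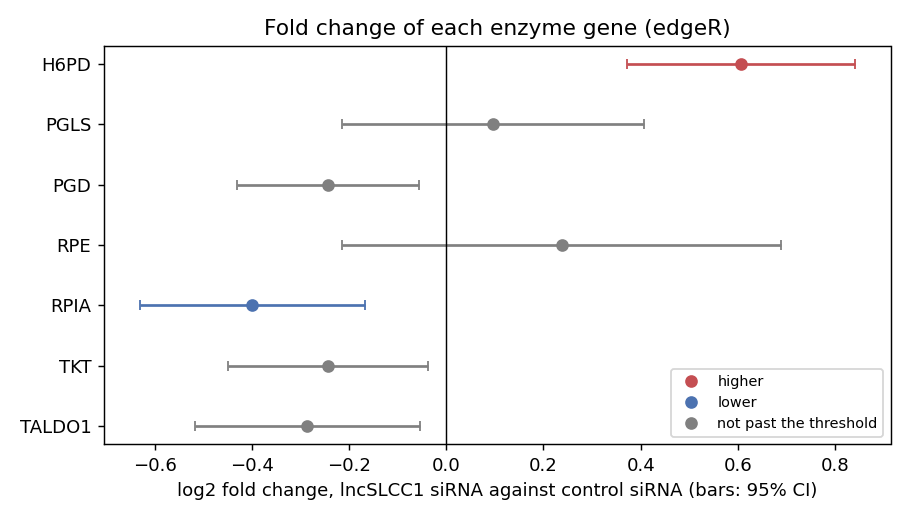
Log2 fold change of each enzyme gene, lncSLCC1 siRNA against control siRNA (points), with 95% confidence intervals (bars), coloured by the edgeR call over all genes. H6PD at 0.61 and RPIA at -0.40 passed the threshold; the intervals of PGD, TKT and TALDO1 lie below 0 although their adjusted p-values were 0.0803, 0.105 and 0.0928, and those of PGLS and RPE span 0.

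Within each library the abundant enzymes kept nearly the same proportions, a comparison that does not depend on how libraries are scaled. There were 0.689, 0.703 and 0.733 PGD reads per TKT read in control replicates 1, 2 and 3 and 0.710, 0.702 and 0.709 after lncSLCC1 siRNA. The mean log2 ratio was -0.50 ± 0.045 in controls and -0.50 ± 0.0081 after lncSLCC1 siRNA (SD, n = 3 each), a difference of -0.0022 (exact two-sided permutation p = 0.9). TKT reads per TALDO1 read were 1.31, 1.30 and 1.40 in controls and 1.36, 1.41 and 1.36 after lncSLCC1 siRNA, and the mean log2 ratio differed by 0.04 (exact two-sided permutation p = 0.3, adjusted over the 3 ratios 0.45). With 3 libraries against 3 this test cannot go below 0.1. The groups overlapped for both ratios.

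RPIA and RPE both act on ribulose 5-phosphate, RPIA as the isomerase that makes ribose 5-phosphate and RPE as the epimerase that makes xylulose 5-phosphate, a substrate of transketolase. RPIA was at 50.3, 48.0 and 43.2 CPM with control siRNA and at 39.3, 38.1 and 35.3 CPM after lncSLCC1 siRNA. Every lncSLCC1 siRNA library was below every control. The mean fell to 79.6% of the control level, from 47.2 ± 3.61 to 37.6 ± 2.05 CPM (SD, n = 3 each). The log2 fold change of -0.40 had an SE of 0.104 and a 95% confidence interval of -0.63 to -0.17 (edgeR adjusted p = 0.0338). These levels rest on 444 to 748 reads per library. The RPIA call ended when control replicate 2 or 1 of lncSLCC1 siRNA replicates 1, 2 and 3 was left out (adjusted p = 0.112, 0.1, 0.136 and 0.154 by edgeR), while its log2 fold change was -0.40, -0.44, -0.41 and -0.36.

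RPE was decided by 1 library. It stood at 30.3 CPM in control replicate 1, but at 58.5 and 61.3 CPM in the other two controls. After lncSLCC1 siRNA the libraries held 59.9, 60.2 and 64.7 CPM. Control replicate 1 thus held 51.7% of the level of the next lowest library, and the other 5 libraries lay close together. With all libraries the log2 fold change was 0.24 (95% confidence interval -0.21 to 0.69, SE 0.203, edgeR adjusted p = 0.455), and without control replicate 1 it was -0.0098 (adjusted p = 0.933 by edgeR). KANSL1L, which overlaps RPE by 837 bases on the opposite strand in GENCODE release 29, was singled out after its values were seen. Its levels were 5.92, 11.3 and 12.7 CPM with control siRNA and 11.8, 13.1 and 13.0 CPM after lncSLCC1 siRNA, with control replicate 1 lowest likewise. Of the 7985 tested genes with a mean of at least 20 CPM, 129 (1.62%) were as low as RPE or lower in control replicate 1 relative to their lowest other library. The part of this library's composition in the RPE value was not tested.

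Near-identical copies could share reads with RPE. RPEL1, an intronless relative of RPE, was at 7.87, 7.90 and 8.92 CPM with control siRNA and at 8.27, 7.60 and 6.60 CPM after lncSLCC1 siRNA, and did not show the low value of control replicate 1. It did not differ past the threshold (log2 fold change -0.20 with an SE of 0.137, edgeR adjusted p = 0.347). Of 8 rows named as pseudogenes of PGD, RPE or RPIA, 6 had 0 reads in every library, and PGDP1 was the one that was tested, at 0.477 to 0.949 CPM. Counts of RPE and RPEL1 are uncertain where reads fitted more than 1 copy.

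The ratio of the isomerase to the epimerase was highest in control replicate 1. RPIA reads per RPE read were 1.66, 0.821 and 0.705 in control replicates 1, 2 and 3 and 0.657, 0.632 and 0.546 after lncSLCC1 siRNA. All 3 lncSLCC1 siRNA libraries lay below the controls, and the mean log2 ratio went from -0.02 ± 0.66 to -0.71 ± 0.141 (SD, n = 3 each; difference -0.69, exact two-sided permutation p = 0.1, the smallest possible, and 0.3 adjusted over the 3 ratios). Without control replicate 1 the difference was -0.32.

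**Figure D3:**
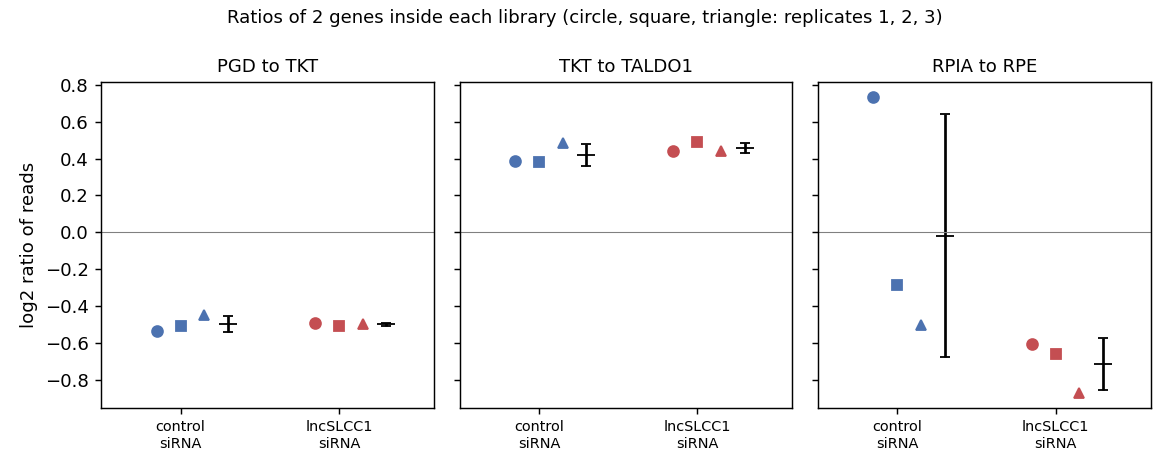
Log2 ratio of the reads of 2 genes inside each library (vertical axis, shared), for PGD to TKT, TKT to TALDO1 and RPIA to RPE, with the mean and SD of each group beside its 3 libraries. The first 2 ratios overlap between groups, while RPIA to RPE runs from 0.55 to 0.66 RPIA reads per RPE read after lncSLCC1 siRNA and reaches 1.66 in control replicate 1.

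**Figure D4:**
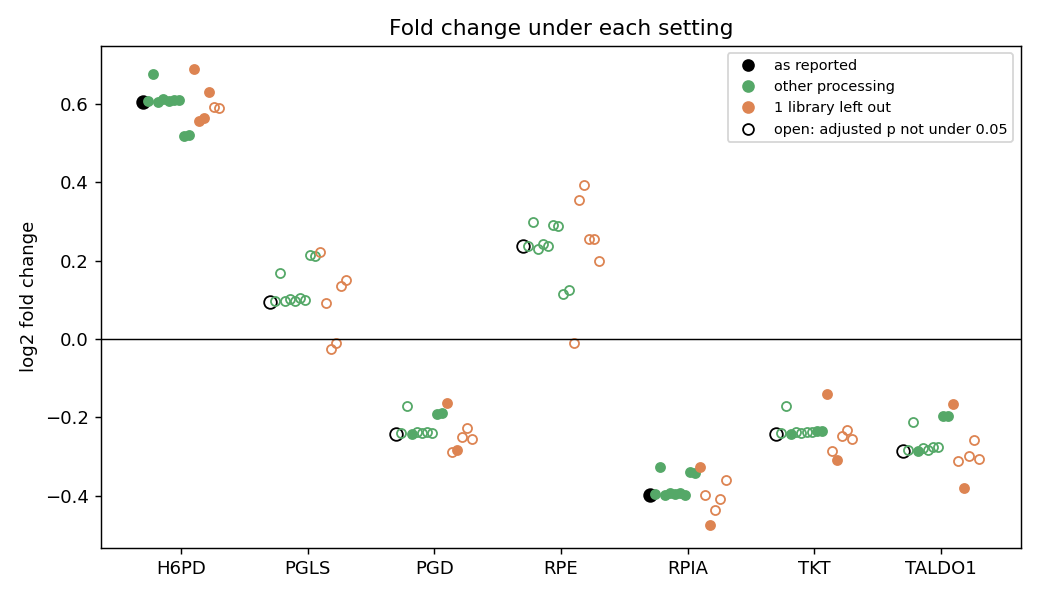
Log2 fold change of each enzyme gene (vertical axis) as reported (black), under 9 other ways of processing (green) and with each of the 6 libraries left out in turn (orange); filled points have an adjusted p under 0.05. H6PD stays between 0.52 and 0.69 and RPIA between -0.47 and -0.33, PGD, TKT and TALDO1 stay below 0 throughout, and PGLS and RPE cross 0 when 1 library is left out.

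Over these 15 settings the direction was kept by H6PD, RPIA, PGD, TKT and TALDO1. PGD ran from -0.29 to -0.16, TKT from -0.31 to -0.14 and TALDO1 from -0.38 to -0.17, and each of the 3 passed the test in 5 of the 15 settings. The sign turned for RPE without control replicate 1, and for PGLS without control replicate 3 (log2 fold change -0.025) and without lncSLCC1 siRNA replicate 1 (-0.0108).

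Per kilobase of the longest GENCODE transcript, the order of levels was TALDO1, PGD, TKT, PGLS, RPIA, RPE and H6PD in both groups. In controls the levels were 371 ± 44.5 CPM per kilobase for TALDO1, 249 ± 16.9 for PGD and 221 ± 20.5 for TKT (SD, n = 3 each). PGLS followed at 35.1 ± 5.04, RPIA at 25.5 ± 1.96, RPE at 15.8 ± 5.43 and H6PD at 2.67 ± 0.195 CPM per kilobase. After lncSLCC1 siRNA they were 320 ± 10.2 for TALDO1, 222 ± 3.96 for PGD, 196 ± 2.54 for TKT, 39.4 ± 4.71 for PGLS, 20.3 ± 1.11 for RPIA, 19.5 ± 0.847 for RPE and 4.26 ± 0.142 for H6PD. The ranges of PGD and TKT overlapped in controls (238 to 269 against 206 to 244), but within each library PGD lay above TKT. That order rests on the 1 length taken per gene, 1885 bases for PGD and 3010 for TKT. By CPM alone TKT lay above PGD in each library, and no other lengths were tried. Those of RPIA and RPE overlapped after lncSLCC1 siRNA (19.1 to 21.3 against 18.9 to 20.4), and in lncSLCC1 siRNA replicate 3 RPE lay above RPIA. H6PD has the longest transcript, 9146 bases against 1028 to 3165 for the other 6, and was the least abundant by this measure in all 6 libraries.

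The summed level of the oxidative members was 574, 509 and 509 CPM with control siRNA and 503, 487 and 501 CPM after lncSLCC1 siRNA, most of it PGD. The non-oxidative members summed to 1379, 1237 and 1169 CPM in controls and to 1126, 1096 and 1139 CPM after lncSLCC1 siRNA, most of it TKT and TALDO1. The 7 summed to 1953, 1746 and 1678 CPM with control siRNA, highest in control replicate 1. After lncSLCC1 siRNA they summed to 1629, 1583 and 1640 CPM. The sum of the 7 was 1792 ± 143 CPM with control siRNA and 1617 ± 29.9 CPM (SD, n = 3 each), or 90.2% of that level, after lncSLCC1 siRNA. H6PD took 1.32% to 1.41% of these reads in controls and 2.30% to 2.51% after lncSLCC1 siRNA.

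The 250 bases upstream of 1 start site per gene were searched on both strands. The search was made after PGD, TKT and TALDO1 had been seen to lie lower, none of them past the threshold, and H6PD higher. The part of upstream letters in these differences was not tested. Windows of all 7 genes were found in RefSeq for GRCh38.p14, a later build than that of the count tables. Stretches of 30 bases around the match nearest the start are shown on the gene's strand, to let the motifs be seen in place, with the motif in capitals; a motif on the opposite strand appears as its reverse complement. They lie at chr1:10398853-10398882 and chr1:10398985-10399014 for PGD and chr2:210002477-210002506 for RPE, all on the plus strand. Those of TALDO1 and RPIA are at chr11:747384-747413 and chr2:88691643-88691672 on the plus strand, and that of TKT at chr3:53256023-53256052 on the minus strand.
PGD, antioxidant response element core: cctcgccgggGCAATGTCAtctaggtgctc
RPE, antioxidant response element core: ggcggacggcTGACAGCGCcccaccccagg
PGD, CCAAT box: cccttccattcgATTGGccggcgccgaaaa
TALDO1, CCAAT box: cgccgctttccgATTGGcagccgcccgcgg
TKT, GC box: gacttaacgcgcccCCGCCCcgcgcccggc
RPIA, GC box: gatttccgggggagccggGGGCGGgacttc

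The GC box GGGCGG is bound by SP family factors. It was found upstream of 5 of the 7 genes (PGD, RPE, RPIA, TKT and TALDO1) and in 42.6% of all 35116 windows of that length. The 35116 windows were not matched to the 7 genes by expression or GC content, so these shares are not a like-for-like background. The CCAAT box, letters CCAAT, was found upstream of the same 5 genes and in 32.0% of all windows. The core of the antioxidant response element, TGACNNNGC, through which NRF2 acts, was found upstream of PGD and RPE and in 10.9% of all windows. The E-box CACGTG was found upstream of 0 of 7 genes and in 6.34% of all windows, and TATAAA upstream of 0 of 7 and in 10.7%. None of these letters occurred upstream of H6PD or PGLS. The window of H6PD had a GC content of 44.8%, against 60.0% to 78.4% for the other 6. TKT held 5 matches to the GC box. A match is a description of the letters and not a binding site.

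Beyond the 7 enzymes, genes connected to the pathway were read from fixed lists. Among 8 other genes whose enzymes make NADPH, 1 was higher and 0 were lower, with a median log2 fold change of 0.19. Of all tested genes 6.46% were called higher and 7.39% lower, with a median of 0.0072, so that 1 of 8 lies near this background. ME1, the cytosolic malic enzyme, rose from 102, 144 and 135 CPM with control siRNA to 197, 185 and 192 CPM (log2 fold change 0.53 with an SE of 0.110, edgeR adjusted p = 0.0145). Leaving out any 1 of the lncSLCC1 siRNA libraries ended the ME1 call (adjusted p = 0.0752, 0.0649 and 0.0737 by edgeR for replicates 1, 2 and 3). IDH1, the cytosolic isocitrate dehydrogenase, and NNT, the mitochondrial transhydrogenase, had log2 fold changes of 0.15 and 0.27 and did not pass (adjusted p = 0.212 and 0.12 by edgeR). ME3, a mitochondrial malic enzyme, had one of -0.24 and did not pass either (adjusted p = 0.193 by edgeR). NNT passed in 1 of the 15 other settings, ME3 in 2 and IDH1 in 0.

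Of 9 genes whose products use NADPH, 1 was lower and 0 were higher, with a median log2 fold change of -0.23. Beside the 7.39% lower and 6.46% higher of all tested genes, with a median of 0.0072, 1 of 9 lies near the background. GSR, the glutathione reductase, fell from 279, 253 and 269 CPM with control siRNA to 231, 229 and 234 CPM (log2 fold change -0.28 with an SE of 0.078, edgeR adjusted p = 0.0431). TXNRD1 encodes a thioredoxin reductase and FASN the fatty acid synthase. Their log2 fold changes of -0.25 and -0.24 did not pass (adjusted p = 0.0594 and 0.0625 by edgeR). Nor did that of POR, the reductase that passes electrons to cytochromes P450 (-0.23, adjusted p = 0.1 by edgeR). TXNRD1, FASN and POR each passed in 4 of the 15 other settings. Library totals in place of TMM scaling ended the GSR call (adjusted p = 0.0642 by edgeR), as did leaving out control replicate 2 (0.0736) or any 1 of the lncSLCC1 siRNA libraries (0.156 to 0.187).

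At the exit of the pathway, 1 of 6 tested genes of ribose phosphate use and salvage was lower and 0 were higher. Among all tested genes 7.39% were called lower and 6.46% higher. The lower gene of the list was PRPS2, which activates ribose 5-phosphate to phosphoribosyl pyrophosphate for nucleotide synthesis. PRPS2 fell from 63.5, 81.4 and 85.5 CPM with control siRNA to 35.8, 34.3 and 37.3 CPM (log2 fold change -1.17 with an SE of 0.110, edgeR adjusted p = 0.000357). Its paralog PRPS1 was at 27.7 to 35.1 CPM in controls and 27.4 to 32.0 CPM after lncSLCC1 siRNA, and was not called (log2 fold change -0.16 with an SE of 0.118, edgeR adjusted p = 0.381). PGM2 is a phosphopentomutase and PRPSAP2 a protein associated with the synthetase. Neither was called (log2 fold changes -0.23 and -0.25, adjusted p = 0.168 and 0.112 by edgeR). PGM2 passed in 3 of the 15 other settings and PRPSAP2 in 1.

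Among paralogs and side reactions, SHPK, the kinase that feeds sedoheptulose into the non-oxidative branch, fell from 38.0, 39.4 and 40.8 CPM with control siRNA to 28.0, 27.1 and 27.7 CPM (log2 fold change -0.58 with an SE of 0.089, edgeR adjusted p = 0.00387). The transketolase-like genes TKTL1 and TKTL2 had too few reads to be tested, at most 0.0678 and 0.328 CPM, so that nearly all transketolase reads came from TKT. Of the 2 tested genes of this list, SHPK and RPEL1, 1 was lower and 0 were higher, beside 7.39% and 6.46% of all tested genes.

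Where the pathway meets glycolysis, 1 of 11 genes was higher and 2 were lower, with a median log2 fold change of -0.18. Of all tested genes 6.46% were called higher and 7.39% lower, with a median of 0.0072. TPI1, which interconverts the triose phosphates, fell from 693, 591 and 530 CPM with control siRNA to 404, 382 and 389 CPM (log2 fold change -0.70 with an SE of 0.111, edgeR adjusted p = 0.00462). HK2, which makes glucose 6-phosphate, was lower (log2 fold change -0.36, SE 0.076) and PFKL, a phosphofructokinase subunit, was higher (0.31, SE 0.081), with adjusted p-values of 0.0159 and 0.0347 by edgeR. GPI, which links glucose 6-phosphate and fructose 6-phosphate, had a log2 fold change of -0.29 and did not pass (adjusted p = 0.0543 by edgeR). GPI passed in 6 of the 15 other settings, among them DESeq2 (adjusted p = 0.0466 by DESeq2). Leaving out control replicate 2 ended the calls of HK2 and PFKL (adjusted p = 0.0658 and 0.139 by edgeR), as did leaving out any 1 of the lncSLCC1 siRNA libraries (0.0719 to 0.109 for HK2 and 0.14 to 0.146 for PFKL).

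Of 8 regulators measured, 2 were lower and 0 were higher, beside 7.39% and 6.46% of all tested genes. MYC, a transcription factor that acts on many metabolic genes, fell from 244, 241 and 219 CPM with control siRNA to 174, 161 and 161 CPM (log2 fold change -0.58 with an SE of 0.084, edgeR adjusted p = 0.00306). MAFG, a small MAF protein that pairs with NRF2, fell from 87.7, 78.0 and 77.6 CPM to 60.9, 64.9 and 61.3 CPM (log2 fold change -0.45 with an SE of 0.094, edgeR adjusted p = 0.0147). NFE2L2, which encodes NRF2, was at 123 to 148 CPM in controls and 126 to 136 CPM after lncSLCC1 siRNA. It was not called (log2 fold change -0.16, adjusted p = 0.217 by edgeR). MAFK, another small MAF gene, was not called either (-0.32, adjusted p = 0.0811 by edgeR). NFE2L2 and MAFK each passed in 3 of the 15 other settings. Leaving out control replicate 2 ended the MAFG call (adjusted p = 0.0531 by edgeR), as did leaving out any 1 of the lncSLCC1 siRNA libraries (0.0719 to 0.0862).

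**Figure D5:**
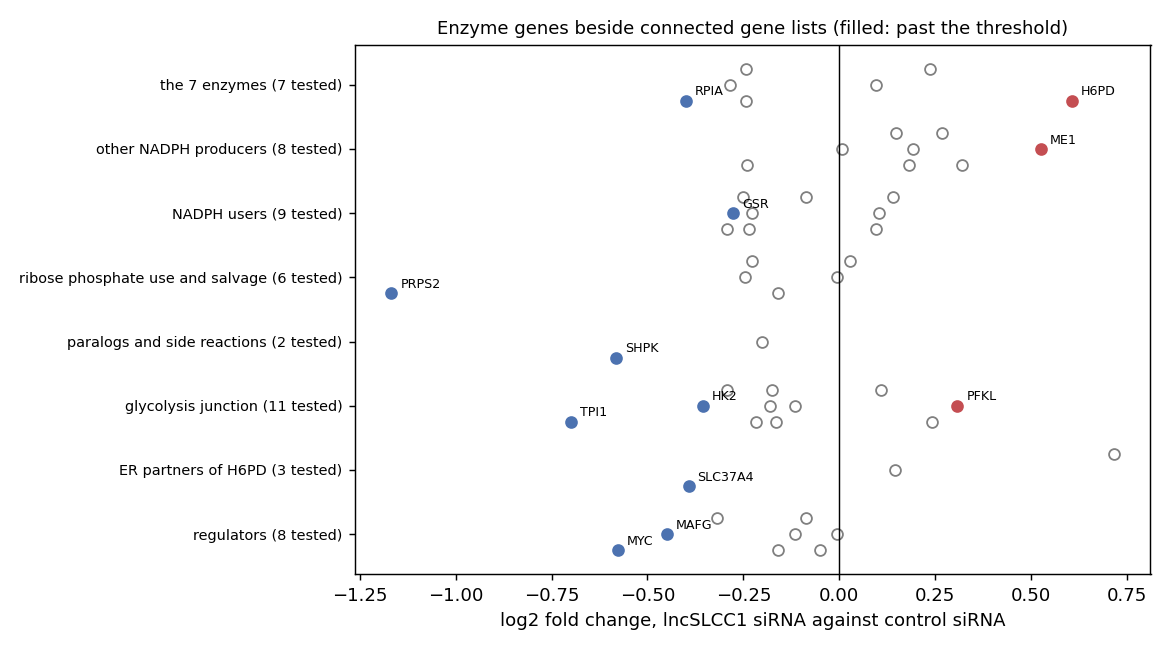
Log2 fold change (horizontal axis) of each tested gene of the 7 enzymes and of 7 connected lists (rows; vertical offsets within a row only separate points), with genes past the edgeR threshold filled and named. PRPS2 at -1.17 lies lowest, and H6PD at 0.61, ME1 at 0.53 and PFKL at 0.31 are the filled points above 0.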

How the data were processed

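The authors deposited raw read counts per gene symbol, 1 table per library; the submitters' processing notes list TopHat2 version 2.0.11 and HTSeq with builds hg19 and GRCh37. Neither the annotation release nor the strand setting is stated in the sources used here. HTSeq's summary lines were left out. CPM was computed from the total of gene reads per library (12572277 to 15568075). Genes passing edgeR's default expression filter were compared between the groups over all 6 libraries by the quasi-likelihood test of edgeR 4.0.16 in R 4.3.3, after TMM scaling and without covariates. Fold changes are therefore on TMM scale and CPM values on library totals. Standard errors were the fold change divided by the root of F. The tests were checked on simulated counts, in which all genes had the same spread and no library stood apart. There edgeR recovered 11 of 67 genes planted at 1.25-fold, 44 of 67 at 1.5-fold and 66 of 66 at 2-fold. Small changes would therefore often be missed.

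Groups came from the sample labels. The members and lists were chosen with earlier results of these data known. Named were the 7 members, the targeted RNA, up to 4 genes with the smallest p in each list, all paralogs, pseudogene rows of the members, and for each called member the 3 protein-coding genes with the highest Pearson r at a mean of at least 20 CPM. Lengths and overlaps came from GENCODE release 29 by symbol, and 89.6% of tested genes had a length. Other settings were size factors from DESeq2, library totals, 2 other low-count filters, DESeq2 1.42.0, limma-voom (limma 3.58.1), the replicate number as a block, GC content and length offsets, both together, and each library left out.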

Additional observations from a re-analysis of the deposited data

How the results depend on the processing

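With all 6 libraries 984 genes were higher and 1126 lower, of which 46.6% were higher; 1 member was called higher and 1 lower. Without a low-count filter 1600 genes were higher and 1672 lower (5.33% and 5.57% of tested genes), with 4 members lower. With GC content and length offsets 1820 genes were higher and 2945 lower (38.2% higher), and with these offsets and the replicate block 1655 and 2753. In each of these fits 4 members were lower, beside 19.3% and 18.1% of tested genes. With library totals 63.9% of called genes were higher, and the median log2 fold change was 0.0765 over all genes and -0.17 over the members. Leaving out 1 library gave 213 to 2112 genes higher (1.37% to 13.5% of tested genes) and 244 to 2431 lower (1.56% to 15.5%). In these fits 0 to 1 members were higher and 0 to 4 lower. The RPE change ran from -0.0098 to 0.3926 and that of PGLS from -0.025 to 0.2218, reversing at -0.0098, -0.025 and -0.0108. The replicate block gave 993 higher and 1059 lower genes and the same members called, with H6PD at an adjusted p of 0.00932 and RPIA at 0.0329 by edgeR, and GSR at 0.0675, above the threshold. Same-numbered libraries deviated from their group means with correlations of 0.09, 0.0014 and -0.016, so the numbers were not taken as pairs, and not every library correlated best with its own number. These numbers are those of the sample titles; by the numbers in the deposited files' names, replicates 2 and 3 of both groups also share a number and replicates 1 do not. Leaving out 1 library moved the difference in log2 ratio between -0.0218 and 0.0227 for PGD to TKT, 0.0208 and 0.0736 for TKT to TALDO1, and -0.94 and -0.32 for RPIA to RPE; the last value is without control replicate 1, against -0.69 with all libraries, a move larger than the SD of 0.141 among lncSLCC1 siRNA libraries and smaller than the control SD of 0.66, which includes that same library. PGD, TKT and TALDO1 rest on 5330 to 10943 reads per library, H6PD, PGLS, RPE and RPIA on 360 to 949. The cause of the changed counts was not tested.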

Other observations

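Among 7649 protein-coding genes with a mean of at least 20 CPM, those whose log2 CPM followed H6PD most closely over the 6 libraries were BTBD2, ARRB1, which encodes beta-arrestin 1, and MAPKAP1, which encodes a subunit of the mTORC2 complex. Their Pearson r was 0.998, 0.998 and 0.997. BTBD2 and ARRB1 rose by 0.45 each on the log2 scale (adjusted p = 0.012 and 0.0153 by edgeR), and MAPKAP1, at 0.25, did not pass the test (adjusted p = 0.0645). The genes closest to RPIA were FTSJ1, a transfer RNA methyltransferase gene, ITPK1, an inositol phosphate kinase gene, and RELA, which encodes an NF-kB subunit, with r of 0.997, 0.997 and 0.996 and log2 fold changes of -0.32, -0.25 and -0.26, none past the threshold (adjusted p = 0.0523, 0.0683 and 0.0716 by edgeR). All of these values share the same 6 libraries and their depth, the libraries fall into 2 groups, and the highest of 7649 correlations is high by selection, so these are descriptions without a test.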
